A study of Homo sapiens with 12 samples.

Results

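EphB2-Fc was compared with Ctrl-Fc in HMC3 cells that carried negative control siRNA, using the 6 libraries of these 2 groups out of 12 in the series. HMC3 is an immortalized human line that the study used as a model of microglia, the resident immune cells of the brain. In the EphB2 group (n = 3), cells in 12-well plates received negative control siRNA for 48 h and then pre-clustered EphB2-Fc, the receptor fused to an antibody Fc tail, at 2 µg/mL for 24 h. In the Ctrl group (n = 3), cells received the same siRNA and the same dose of Ctrl-Fc for the same time. Both proteins had been clustered for 1 h on ice with goat anti-human IgG, so the siRNA, the transfection reagent, the Fc tail and the clustering antibody were common to both groups. The other 6 libraries, in which ephrin-B1 siRNA replaced the control siRNA, served here to estimate the spread between libraries and to set the same treatment beside it in separate cells. The labels number the libraries of each group as replicates 1 to 3, and the study calls them biological replicates. All 6 libraries come from 1 cell line in culture, so the p-values below measure the spread between libraries of that line. In fits with a block for replicate number, differences shared by same-numbered libraries are taken out of that spread. Whether every library is a separate culture was not tested.

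Ephrin-B proteins sit in the membrane and signal into their own cell when a clustered EphB receptor binds them, which is called reverse signaling, and the comparison asks what this does to RNA levels. Genes of the type I interferon response encode antiviral sensors and effectors. They are switched on through the ISRE, a short promoter element bound by STAT and IRF factors. NF-kB is a family of transcription factors that drives cytokines, chemokines and its own inhibitors in activated myeloid cells.

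Each library held between 13810195 (Ctrl replicate 1) and 21987321 (EphB2 replicate 3) estimated counts, and 21601 genes were tested. Values below are CPM, counts scaled to a common library total, after TMM scaling. In the cell identity check, CSF1R, the growth factor receptor that microglia depend on, lay at 2.46 to 2.74 CPM in EphB2 and 2.27 to 2.67 CPM in Ctrl. Of 15 microglia markers, 13 were below 1 CPM, and AIF1, TYROBP and C1QB had 0 counts in all 6 libraries. Mesenchymal genes were abundant, with THY1 at 271 to 358 CPM in EphB2 and 298 to 357 CPM in Ctrl. The 12 mesenchymal markers summed to 3546 to 3974 CPM in EphB2 and 4338 to 4760 CPM in Ctrl, without overlap. COL1A1 alone had 2665 to 2974 CPM in EphB2 and 3462 to 3598 CPM in Ctrl, so the sums mainly follow that gene. With the block described below 2 markers rose and 3 fell (COL1A1, COL1A2 and PDGFRB), of which 2 fell without replicate 3. The part of this shift in the results below was not tested. The cells are therefore called HMC3 cells throughout.

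Replicate 3 stood apart in every group. Among genes with a mean of at least 5 CPM, 522 were 2-fold or more apart in replicates 1 and 2 of EphB2, and replicate 3 lay between the pair for 95.8% of them, at a median of 0.49 of the way (interquartile range 0.42 to 0.56). In Ctrl the corresponding share was 96.6% of 532 genes, at a median of 0.41 (0.35 to 0.47). Replicate 3 was within 10% of the mean of the other libraries of its group for 76.6% of genes in EphB2 and 82.1% in Ctrl, against 43.0 to 43.4% of genes for replicates 1 and 2 of EphB2 and 43.0 to 47.2% for those of Ctrl. Calls of EphB2 against Ctrl made with the replicate number as a block are therefore set beside those without replicate 3 of every group, and the 3 same-numbered pairs are not read as 3 independent repeats. The cause was not tested.

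**Figure D1:**
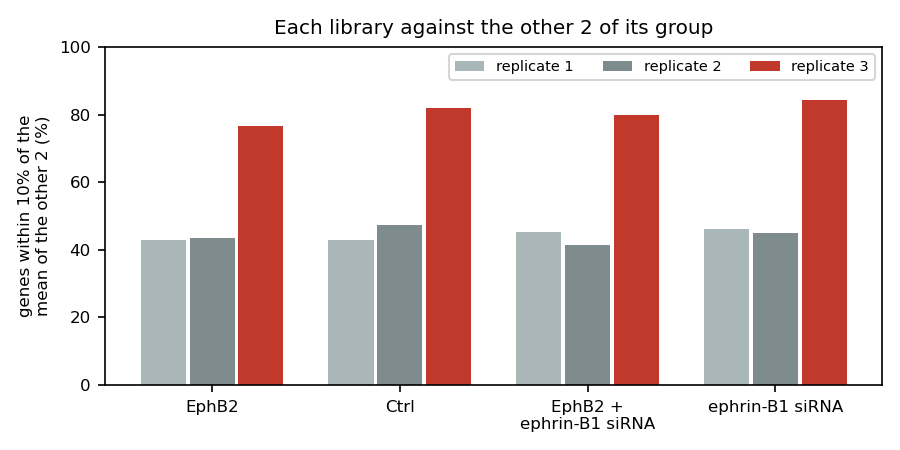
Share of genes (y axis, percent) whose CPM in a library was within 10% of the mean of the other 2 libraries of its group, for replicates 1, 2 and 3 of each group (x axis). Genes have a mean of at least 5 CPM in the group. The bars of replicate 3 reach 76.6 to 84.2% of genes in the 4 groups and those of replicates 1 and 2 reach 41.5 to 47.2%.

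Without regard to replicate number, 8 genes passed an adjusted p of 0.05 in EphB2 against Ctrl, 5 higher and 3 lower (0.037% of the genes tested; edgeR quasi-likelihood test). At an unadjusted p of 0.05, 1634 genes passed. When the replicate number was included as a block, 461 genes were higher (2.13%) and 692 were lower (3.2%). The block was included because same-numbered libraries share an experiment number. Those of replicates 1 and 2 varied together. For replicate 3, which lay near the middle, this could not be judged. With the block and without replicate 3, 68 genes were higher (0.329%) and 72 lower (0.349%). All 1153 genes called with the block kept their direction without replicate 3, and 132 of them were called there too. The kept direction is no separate support, since replicates 1 and 2 also entered the calls. Of the 1153, 1148 had changed the same way in all 3 pairs. Most changes were small: 47 of the higher genes rose at least 2-fold and 10 of the lower genes fell at least 2-fold with the block. Rose and fell are used below of genes past the threshold with the block. For EphB2 against Ctrl with control siRNA, the value without replicate 3 is given in the same place. Counts within gene lists are to be read against the shares of all genes given here.

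The 5 genes that were higher without the block encode an immune effector, transcriptional regulators and mitochondrial proteins. C3 (chr19:6677704-6730562, GRCh38), the central protein of the complement cascade, showed the largest change of the 8. It had 27.8, 46.0 and 39.5 CPM in EphB2 replicates 1, 2 and 3, against 7.26, 9.96 and 8.83 CPM in Ctrl replicates 1, 2 and 3. The means were 37.7 ± 9.22 CPM in EphB2 and 8.69 ± 1.36 CPM in Ctrl (SD, n = 3 each). The log2 fold change was 2.11 (SE 0.21, adjusted p = 0.01), and with the block the adjusted p was 3.7e-06, or 0.00216 without replicate 3. Without replicate 3 of every group and without the block, C3 did not pass. The lowest EphB2 library exceeded the highest Ctrl library by more than 2-fold. The coding transcript of C3 with the highest level averaged 7.46 TPM in EphB2 and 1.66 TPM in Ctrl in the authors' own length-scaled values. Without the block, an offset for transcript length gave C3 a log2 fold change of 1.48 and ended the call (adjusted p = 0.139), as did fitting only the 6 libraries compared (adjusted p = 0.174) and limma on log2 TPM with a pseudocount of 1 (adjusted p = 0.632). GPR108 overlaps C3 on the same strand.

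MYOCD (chr17:12665890-12768949), a coactivator of serum response factor in smooth and cardiac muscle, had 78.6, 74.2 and 74.7 CPM in EphB2 and 31.2, 32.3 and 28.0 CPM in Ctrl. The log2 fold change was 1.31 (SE 0.19, adjusted p = 0.0472, 7.01e-05 with the block and 0.0131 without replicate 3 as well). The 3 libraries of each group lay close together and the groups were well separated. HDAC9 (chr7:18086949-19002416), a class IIa histone deacetylase that binds MEF2 factors, had 37.5, 30.0 and 33.6 CPM in EphB2 and 19.6, 16.1 and 18 CPM in Ctrl. Over the groups this came to 0.92 in log2 (SE 0.13, adjusted p = 0.0418, 4.66e-06 with the block and 0.00276 without replicate 3 as well). The log2 ratios of EphB2 over Ctrl in the same-numbered pairs were 0.94, 0.90 and 0.90. PNPT1 (chr2:55634061-55693863), a mitochondrial exoribonuclease that is also induced by interferon, had 75.1, 96.4 and 86.1 CPM in EphB2 and 55.9, 56.1 and 52.9 CPM in Ctrl (log2 fold change 0.64, SE 0.08, adjusted p = 0.0374, 7.76e-05 with the block and 0.0196 without replicate 3 as well). PPIF (chr10:79347469-79355334), which encodes cyclophilin D, a regulator of the mitochondrial permeability pore, had 236, 239 and 241 CPM in EphB2 and 154, 169 and 165 CPM in Ctrl (log2 fold change 0.55, SE 0.07, adjusted p = 0.0324, 0.000107 with the block and 0.0155 without replicate 3 as well).

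The 3 genes that were lower without the block belong to the cytoskeleton and the mitotic spindle. KRT80 (chr12:52168996-52192014), a type II keratin, had 111, 108 and 110 CPM in EphB2 and 164, 178 and 159 CPM in Ctrl. The change in log2 was -0.61 (SE 0.07, adjusted p = 0.0296, 7.76e-05 with the block and 0.00915 without replicate 3 as well). TNS2 (chr12:53046969-53064379), a tensin of focal adhesions, had 61.4, 63.3 and 62.3 CPM in EphB2 and 90.7, 98.9 and 87.8 CPM in Ctrl (log2 fold change -0.57, SE 0.07, adjusted p = 0.0296, 1.83e-05 with the block and 0.00322 without replicate 3 as well). KIF20A (chr5:138178719-138187723), a kinesin needed at the end of mitosis, had 170, 174 and 183 CPM in EphB2 and 240, 244 and 235 CPM in Ctrl (log2 fold change -0.45, SE 0.06, adjusted p = 0.0374, 0.000108 with the block and 0.0099 without replicate 3 as well). In none of the 8 genes did the groups overlap. The 8 were chosen by their p in these same libraries, so this is no separate support. Over all genes the groups did not overlap for 6.62% with EphB2 higher and 5.93% with EphB2 lower. Without the block, these calls depended on single libraries. Leaving out Ctrl replicate 2 left no gene past the threshold and leaving out Ctrl replicate 3 left none either, and C3 was then at an adjusted p of 0.0579 and 0.0997. Leaving out Ctrl replicate 1 gave 15 genes. Without the block, leaving out replicate 2 or replicate 3 of every group left none of the 8 past the threshold. Leaving out replicate 1 of every group gave 2 genes.

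**Figure D2:**
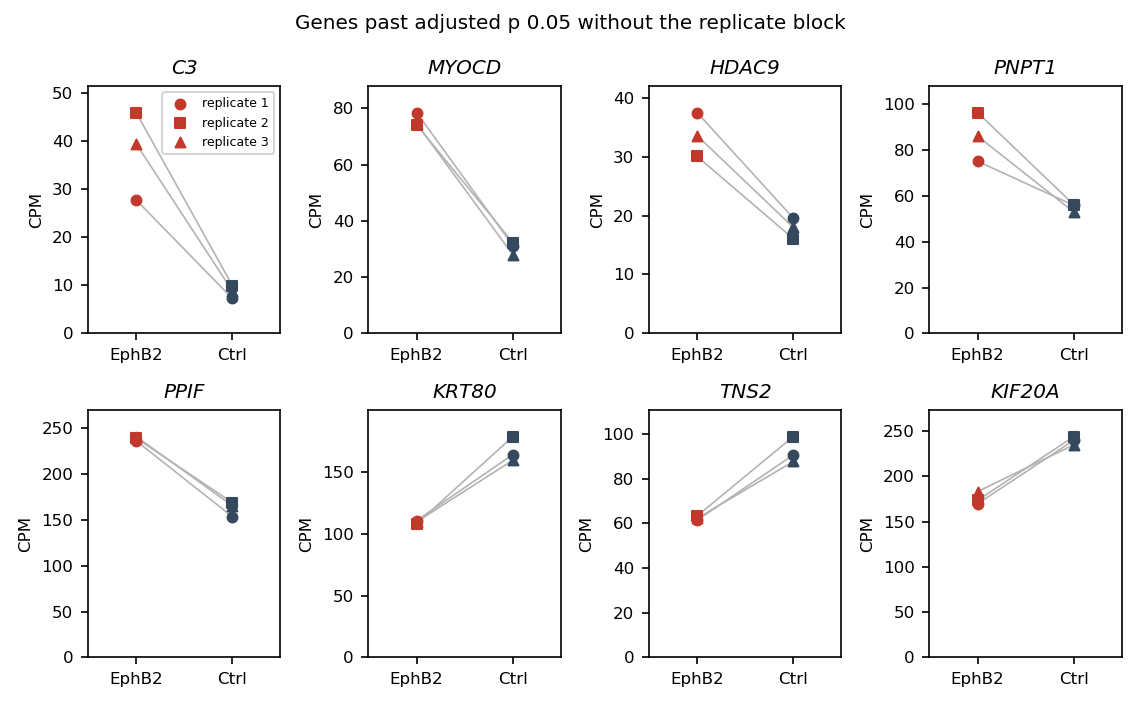
CPM (y axis, from 0) of the 8 genes past an adjusted p of 0.05 without the block, in EphB2 (left, red) and Ctrl (right, dark). Symbols mark replicates 1 to 3 and grey lines join same-numbered libraries; all 3 EphB2 points of C3 lie at 27.8 CPM or more and all 3 Ctrl points at 9.96 CPM or less.

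The type I interferon response was the list with the most genes higher. Of 72 genes tested, 70 had a positive log2 fold change and the median was 0.57, where the median over all genes was 0.01. With the block, 60 of the 72 rose and none fell, where 2.13% of all genes rose and 3.2% fell. Without replicate 3 as well, 13 rose, against 0.329% of all genes. Without the block PNPT1 was the only member past the threshold. The groups did not overlap in 23 of the 72 genes, all with EphB2 higher, against 6.62% of all genes. Levels of this list also differed between replicates within a group: replicate 1 stood above replicate 2 by a median of 0.54 on the log2 scale in EphB2 and 0.96 in Ctrl. The change with EphB2-Fc differed in size between the pairs, with a median log2 ratio of 0.33 for replicate 1, 0.82 for replicate 2 and 0.64 for replicate 3. In bulk RNA, a change in the number of responding cells and a change in RNA per cell cannot be told apart.

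MX2, an interferon-induced GTPase that blocks the nuclear entry of viral genomes, had 132, 57.4 and 96.9 CPM in EphB2 and 60.1, 16.4 and 35.3 CPM in Ctrl. Its log2 fold change was 1.37 without the block (adjusted p = 0.577) and 1.43 with it (adjusted p = 3.7e-06, 0.00216 without replicate 3). Every pair was higher in EphB2, but Ctrl replicate 1 lay above EphB2 replicate 2, so the groups overlapped. IFITM1, a membrane protein that hinders virus entry, had 131, 74.9 and 113 CPM in EphB2 and 61.3, 17.4 and 32.9 CPM in Ctrl (log2 fold change 1.53, adjusted p = 0.3, 4.79e-05 with the block and 0.0104 without replicate 3 as well). IFITM3, its close relative, had 413, 382 and 461 CPM in EphB2 and 329, 213 and 274 CPM in Ctrl (log2 fold change 0.62, adjusted p = 0.204, 0.000516 with the block). Without replicate 3 its blocked adjusted p was 0.0538. Reads of near-identical IFITM genes may be shared between them. IFI35, an interferon-induced leucine zipper protein, had 87.2, 63.9 and 79.8 CPM in EphB2 and 57.1, 31.5 and 47.7 CPM in Ctrl. Its blocked log2 fold change was 0.78 (adjusted p = 3.67e-05, 0.00915 without replicate 3). GBP1, a guanylate-binding protein, had 64.5, 54.5 and 59.4 CPM in EphB2 and 45.9, 30.9 and 36.0 CPM in Ctrl. Its blocked log2 fold change was 0.68 (adjusted p = 5.77e-05, 0.011 without replicate 3). LAP3, EIF2AK2 and PLSCR1 had the smallest unadjusted p of the list after PNPT1, with log2 fold changes of 0.63, 0.51 and 0.70 and blocked adjusted p of 0.00124, 0.00148 and 0.000727, none of which passed without replicate 3 (adjusted p = 0.0875, 0.0973 and 0.0517).

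Sensors of viral RNA and DNA act upstream of interferon. RIGI, a sensor of viral RNA, had 150, 102 and 120 CPM in EphB2 and 96.7, 42.4 and 66.2 CPM in Ctrl (blocked log2 fold change 0.90, adjusted p = 0.00014, 0.0184 without replicate 3). Over the list of nucleic acid sensors and their adaptors, 4 of 23 genes rose and none fell with the block, against 2.13% and 3.2% of all genes. Without replicate 3 as well, 2 rose. Among the 4 was TRAF3, an adaptor downstream of RIGI, with 63.8, 64.9 and 63.3 CPM in EphB2 and 44, 43 and 39.4 CPM in Ctrl. Its blocked log2 fold change was 0.60 (adjusted p = 0.00124, 0.0806 without replicate 3). IRF7, a factor that amplifies interferon production, had 19.1, 15.9 and 15.9 CPM in EphB2 and 9.36, 8.62 and 11.2 CPM in Ctrl. Its groups did not overlap, yet its log2 fold change of 0.80 did not pass without the block (SE 0.32, adjusted p = 0.616) or with it (SE 0.29, adjusted p = 0.147, 0.31 without replicate 3). The interferon gene IFNB1 had 3, 1 and 3 counts in EphB2 and 2, 1 and 1 counts in Ctrl, which is at or under the floor of 3 counts, so no change could be measured at this depth. Among 13 interferon and receptor genes tested, the receptor chain IFNAR1 was the only one past the threshold with the block, at a log2 fold change of -0.16 (76.5, 87.8 and 79.8 CPM in EphB2, 85.4, 95.9 and 90.8 CPM in Ctrl; adjusted p = 0.0478, 0.31 without replicate 3).

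Promoter sequence of 2 of these genes is shown because genes of the interferon response as a group share the ISRE. Its core was searched as GAAANNGAAA on both strands in the 250 bases before the start site. Of 57 promoters matched for the interferon list in RefSeq (GRCh38.p14), 29 held it (50.9%). It was present in 40 of 359 promoters of genes higher with the block (11.1%), in 7 of 543 promoters of genes lower with the block (1.3%), in 2.5% of the promoters of all genes tested and in 3.1% of all 27305 promoters. The genes higher with the block include members of the interferon list, so the 11.1% is not separate from the 50.9%. In IFITM1 (chr11:313920-314039, plus strand) the core stood at -40 to -31 from the start site, and in GBP1 (chr1:89065209-89065408, minus strand) it stood on the opposite strand at -127 to -118. Capitals mark it, 5′ to 3′ on the gene's strand, and a match is a description and not a measured binding site.
IFITM1: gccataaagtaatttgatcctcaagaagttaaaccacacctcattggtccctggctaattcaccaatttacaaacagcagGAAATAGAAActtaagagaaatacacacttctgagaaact
GBP1: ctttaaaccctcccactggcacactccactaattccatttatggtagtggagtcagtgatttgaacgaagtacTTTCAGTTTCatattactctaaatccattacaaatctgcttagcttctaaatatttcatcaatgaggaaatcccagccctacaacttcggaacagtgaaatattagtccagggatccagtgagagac

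Genes of NF-kB signaling rose in part. Of 38 tested, 32 had a positive log2 fold change and the median was 0.27. With the block 15 rose and 1 fell, where 2.13% of all genes rose and 3.2% fell, and 4 rose without replicate 3 as well. BIRC3, an inhibitor of apoptosis and NF-kB target, had 26.6, 18.5 and 20.5 CPM in EphB2 and 12.4, 8.11 and 10.3 CPM in Ctrl. On the log2 scale the change was 1.09 (SE 0.17, adjusted p = 0.0677, 5.77e-05 with the block and 0.00915 without replicate 3 as well). NFKB2, a subunit of the non-canonical pathway, had 97.5, 107 and 110 CPM in EphB2 and 64.2, 83.7 and 75.8 CPM in Ctrl (blocked log2 fold change 0.50, adjusted p = 7.13e-05, 0.0197 without replicate 3). The inhibitors NFKBIA and TNIP1, which are themselves targets, rose by 0.46 and 0.45 on the log2 scale (blocked adjusted p = 0.000845 and 7.76e-05, 0.0517 and 0.0259 without replicate 3). NFKBIA had 55.6, 52.3 and 57.1 CPM in EphB2 and 36.0, 41.8 and 42.2 CPM in Ctrl, without overlap.

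Of 34 cytokine and chemokine genes tested, 27 had a positive log2 fold change, with a median of 0.50. With the block 10 rose and none fell, against 2.13% and 3.2% of all genes. Without replicate 3 as well, 3 rose (IL32, CXCL8 and CCL5). IL32, a cytokine of human and primate cells that induces other cytokines, had 17.4, 9.04 and 14.5 CPM in EphB2 and 3.37, 1.75 and 2.72 CPM in Ctrl. Its log2 fold change of 2.40 (SE 0.38, adjusted p = 0.0764) passed with the block (2.38, SE 0.12, adjusted p = 2.03e-07) and without replicate 3 as well (adjusted p = 0.000423), and it had the smallest blocked p of all genes higher. The 3 pairs gave log2 ratios of 2.33, 2.29 and 2.37. CXCL8, which attracts neutrophils, had 43.9, 11.7 and 25.4 CPM in EphB2 and 10.9, 7.23 and 9.41 CPM in Ctrl, so that the pair of replicate 1 gave a log2 ratio of 1.99 and that of replicate 2 one of 0.69 (blocked log2 fold change 1.44, adjusted p = 0.000502, 0.0314 without replicate 3). CCL5, which attracts T cells, had 65.8, 6.38 and 38.1 CPM in EphB2 and 32.9, 4.08 and 16.4 CPM in Ctrl. Both replicate 2 libraries were below all others, so the groups overlapped, and the log2 fold change of CCL5 was 1.07 without the block (SE 0.97, adjusted p = 0.897) and 1.02 with it (SE 0.09, adjusted p = 4.79e-05, 0.0106 without replicate 3).

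IL6, a cytokine of the acute phase, had 11.1, 9.04 and 11.7 CPM in EphB2 and 4.64, 6.09 and 4.76 CPM in Ctrl (log2 fold change 1.04, SE 0.18, adjusted p = 0.112, 0.00178 with the block and 0.0879 without replicate 3 as well). IL1B, the secreted product of inflammasome activity, had 16.7, 8.85 and 12.9 CPM in EphB2 and 8.24, 5.68 and 6.53 CPM in Ctrl (blocked log2 fold change 0.89, adjusted p = 0.00109, 0.0544 without replicate 3). In both genes the groups did not overlap. TNF had 0 counts in all 6 libraries, and the chemokine CXCL10 had 1 count in each EphB2 library and 0 in each Ctrl library, so neither could be compared. A count of 0 allows up to 0.171, 0.190 and 0.147 CPM in EphB2 replicates 1, 2 and 3 and up to 0.225, 0.155 and 0.157 CPM in Ctrl replicates 1, 2 and 3, for counting error only. CD68, a lysosomal membrane protein of phagocytes, had 27.9, 43.2 and 38.9 CPM in EphB2 and 20.3, 28.4 and 24.6 CPM in Ctrl. Its blocked log2 fold change was 0.58 (adjusted p = 0.00077, 0.0718 without replicate 3), and EphB2 replicate 1 lay below Ctrl replicate 2. CD68 was the only one of 8 macrophage and myeloid markers tested that changed with the block. The markers summed to 41.6 to 51.4 CPM in EphB2 and 33.0 to 36.1 CPM in Ctrl, most of it from CD68. The part of these cells in the immune results was not tested, and no T cell marker reached 1 CPM.

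**Figure D3:**
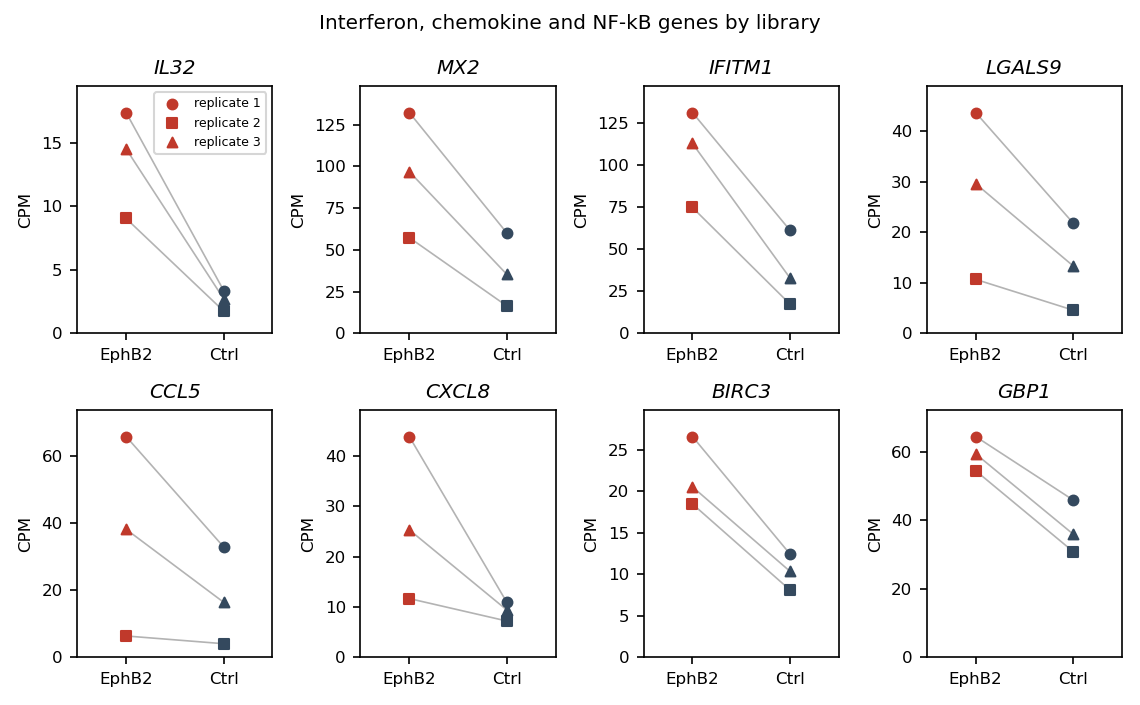
CPM (y axis, from 0) of 8 interferon, chemokine and NF-kB genes in EphB2 (left, red) and Ctrl (right, dark), with symbols for replicates 1 to 3 and grey lines joining same-numbered libraries. In each panel all 3 lines fall toward Ctrl, and in MX2, LGALS9 and CCL5 the groups overlap, with replicate 1 above replicate 2 in both.

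The promoters of NF-kB genes are shown for the same reason as above. The kappa-B consensus was found in 12 of 33 matched promoters of the NF-kB list (36.4%) and in 9 of 22 of the cytokine list (40.9%). It was present in 48 of 359 promoters of genes higher with the block (13.4%), in 26 of 543 of genes lower with the block (4.8%), in 5.9% of all genes tested and in 5.1% of all promoters. The genes higher with the block include members of both lists, so the 13.4% is not separate from the shares of the lists. The windows are IL32 (chr16:3065253-3065402), BIRC3 (chr11:102317264-102317483) and IL6 (chr7:22727080-22727199), all on the plus strand of GRCh38.p14, with matches in capitals. IL32 holds overlapping matches on both strands at -99 to -89, BIRC3 matches on the opposite strand at -199 to -190 and at -135 to -126, and IL6 a match at -73 to -64.
IL32: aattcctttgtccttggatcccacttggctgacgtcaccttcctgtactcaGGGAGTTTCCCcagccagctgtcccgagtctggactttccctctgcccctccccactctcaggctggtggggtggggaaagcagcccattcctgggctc
BIRC3: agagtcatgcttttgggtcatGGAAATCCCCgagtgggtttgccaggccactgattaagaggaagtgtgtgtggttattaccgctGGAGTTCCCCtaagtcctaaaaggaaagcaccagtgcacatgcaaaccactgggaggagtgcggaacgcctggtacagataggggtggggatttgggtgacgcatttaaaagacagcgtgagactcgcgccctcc
IL6: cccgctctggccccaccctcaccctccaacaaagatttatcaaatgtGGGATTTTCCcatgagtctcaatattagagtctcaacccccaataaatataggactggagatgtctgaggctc

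Among the remaining immune genes, C3 was the only one of 23 complement genes past the threshold with the block. The median over the list was 0.07, and 2 of its genes were higher without replicate 3. Of 20 genes for presenting antigen on MHC class I, 6 rose and none fell with the block, where 2.13% of all genes rose. Without replicate 3 as well, 2 rose, against 0.329% of all genes. TAPBP, which loads peptides onto class I molecules, had 188, 153 and 168 CPM in EphB2 and 126, 112 and 119 CPM in Ctrl (blocked log2 fold change 0.51, adjusted p = 0.000111, 0.011 without replicate 3). ERAP1, which trims those peptides, had a blocked log2 fold change of 0.30 (adjusted p = 0.00332, 0.17 without replicate 3). LGALS9, a galectin that binds immune checkpoint receptors, had 43.6, 10.7 and 29.6 CPM in EphB2 and 21.8, 4.59 and 13.3 CPM in Ctrl, with overlapping groups (blocked log2 fold change 1.11, adjusted p = 1.22e-05, 0.00479 without replicate 3). IL7R, the receptor chain for interleukin-7, had 42.3, 58.4 and 46.4 CPM in EphB2 and 22.1, 31.0 and 28.3 CPM in Ctrl, without overlap (blocked log2 fold change 0.85, adjusted p = 4.66e-06, 0.00216 without replicate 3). IL4I1, a secreted amino acid oxidase that dampens T cells, had 7.37, 1.77 and 5.18 CPM in EphB2 and 2.1, 0.62 and 0.993 CPM in Ctrl (blocked log2 fold change 1.95, adjusted p = 0.000127, 0.0155 without replicate 3).

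Outside the immune lists, F3, tissue factor, which starts coagulation, had 50.7, 92.0 and 70.2 CPM in EphB2 and 35.2, 50.3 and 43.0 CPM in Ctrl (blocked log2 fold change 0.71, adjusted p = 0.000121, 0.0155 without replicate 3). TMEM132A, a transmembrane protein, had 130, 92.9 and 106 CPM in EphB2 and 92.0, 53.9 and 71.7 CPM in Ctrl (blocked log2 fold change 0.61, adjusted p = 3.81e-05, 0.00915 without replicate 3). Of 26 metalloproteinase and plasminogen genes 5 rose and 4 fell with the block, where 2.13% of all genes rose and 3.2% fell, and 1 rose and 1 fell without replicate 3. MMP1, an interstitial collagenase, had 11.2, 10.2 and 9.72 CPM in EphB2 and 6.44, 3.56 and 3.81 CPM in Ctrl, and MMP2, a gelatinase, had 6.51, 8.41 and 9.38 CPM in EphB2 and 12.4, 18 and 16.2 CPM in Ctrl. They moved in opposite directions, with blocked log2 fold changes of 1.20 (adjusted p = 0.00535, 0.117 without replicate 3) and -0.93 (adjusted p = 0.000254, 0.00915 without replicate 3).

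Lists around MYOCD, HDAC9 and PPIF are read against 2.13% of all genes that rose and 3.2% that fell with the block. Each list holds its own gene, already called above, so that gene adds no support from the list. Of 28 genes in the list of MYOCD, SRF and smooth muscle genes, 3 rose, MYOCD among them, and none fell with the block. Without replicate 3 only MYOCD rose, and the list had a median of 0.08. TAGLN, a smooth muscle actin-binding protein, had 94.2, 129 and 122 CPM in EphB2 and 85.2, 104 and 95.8 CPM in Ctrl, with overlapping groups (blocked log2 fold change 0.27, adjusted p = 0.0393, 0.372 without replicate 3). HDAC9 was the only one of 8 class IIa deacetylase and MEF2 genes that rose with the block, while 1 fell; without replicate 3 HDAC9 rose and none fell. Of 22 genes for mitochondrial permeability and matrix RNA decay, 1 fell and 3 rose with the block. Without replicate 3, 2 rose (PPIF and PNPT1, both already called above) and none fell. The 3 were PPIF, PNPT1 and HK2, a hexokinase that binds the outer mitochondrial membrane. HK2 had 176, 234 and 196 CPM in EphB2 and 140, 164 and 162 CPM in Ctrl (blocked log2 fold change 0.37, adjusted p = 0.00212, 0.0513 without replicate 3).

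Mitotic genes were lower. Of 65 tested, 57 had a negative log2 fold change and the median was -0.14. With the block 24 fell and none rose, where 3.2% of all genes fell. Without replicate 3 as well, 4 fell (HMMR, KIF20A, DLGAP5 and PLK1), against 0.349% of all genes. The median log2 ratio within the pairs was -0.16, -0.13 and -0.13 for replicates 1, 2 and 3. PLK1, the kinase that drives entry into and progress through mitosis, had 121, 131 and 136 CPM in EphB2 and 158, 158 and 156 CPM in Ctrl (log2 fold change -0.28, SE 0.06, adjusted p = 0.194, 0.00235 with the block and 0.049 without replicate 3 as well). PSRC1, a spindle protein, fell by 0.29 on the log2 scale, and CCNB2, a mitotic cyclin, fell by 0.24 (blocked adjusted p = 0.0127 and 0.00235, 0.0937 and 0.106 without replicate 3). Of 60 genes of G1/S and DNA replication 4 rose and 1 fell with the block, against 2.13% and 3.2% of all genes. Their median was 0.02, and none was called without replicate 3. CLSPN, a checkpoint mediator, had 159, 146 and 156 CPM in EphB2 and 134, 127 and 128 CPM in Ctrl (blocked log2 fold change 0.25, adjusted p = 0.00576, 0.179 without replicate 3), while MCM6, a subunit of the replicative helicase, had a blocked log2 fold change of -0.21 (adjusted p = 0.0268, 0.202 without replicate 3).

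The promoter of PLK1 (chr16:23678769-23678888, plus strand, GRCh38.p14) is shown because mitotic genes share the CHR, an element through which the DREAM complex acts. The CHR was searched as TTNGAA on both strands, was found in 33 of 56 matched promoters of the mitosis list (58.9%) and was common elsewhere, in 21.9% of genes lower and 22.6% of genes higher with the block, 23.3% of all genes tested and 31.3% of all promoters. In PLK1 it stands at -29 to -24 and is given in capitals.
PLK1: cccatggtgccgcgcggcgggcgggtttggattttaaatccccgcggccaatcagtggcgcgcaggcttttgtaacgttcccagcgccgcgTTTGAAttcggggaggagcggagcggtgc

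Targets of p53 and the histone genes were lower too. Of 30 p53 targets, 24 had a negative log2 fold change with a median of -0.23. With the block 9 fell and none rose, where 3.2% of all genes fell. Of the 9, 1 fell without replicate 3 as well. MDM2, the ubiquitin ligase that degrades p53, had 308, 276 and 274 CPM in EphB2 and 367, 339 and 340 CPM in Ctrl (blocked log2 fold change -0.29, adjusted p = 0.00093, 0.0785 without replicate 3). TP53INP1, a stress-induced nuclear protein, had 33.6, 27.4 and 32.3 CPM in EphB2 and 47.3, 38.9 and 42.4 CPM in Ctrl (blocked log2 fold change -0.46, adjusted p = 0.00197, 0.0409 without replicate 3). Of 36 replication-dependent histone genes, 34 had a negative log2 fold change with a median of -0.19. With the block 12 fell, against the same 3.2% of all genes, and none rose. Of the 12, H4C8 fell without replicate 3 as well. H4C8 had 46.9, 54.2 and 51.7 CPM in EphB2 and 62.2, 75.7 and 77.6 CPM in Ctrl (blocked log2 fold change -0.50, adjusted p = 0.0012, 0.0383 without replicate 3). The list also differed between replicates, with medians of replicate 1 minus replicate 2 of -0.39 in EphB2 and -0.33 in Ctrl on the log2 scale. Histone genes are close copies of one another, so the division of reads among them is uncertain.

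Cholesterol synthesis and uptake genes were higher with control siRNA. Of 31 tested, 24 had a positive log2 fold change with a median of 0.21. With the block 11 rose and 2 fell, where 2.13% of all genes rose and 3.2% fell. Of the 11, 2 rose without replicate 3 as well. INSIG1, a sterol-regulated brake on the pathway, had 454, 552 and 499 CPM in EphB2 and 346, 402 and 369 CPM in Ctrl (log2 fold change 0.43, SE 0.08, adjusted p = 0.151, 0.0018 with the block and 0.0937 without replicate 3 as well). HMGCS1, an early enzyme of the pathway, had 132, 165 and 145 CPM in EphB2 and 104, 117 and 109 CPM in Ctrl (blocked log2 fold change 0.42, adjusted p = 0.000151, 0.0259 without replicate 3). TM7SF2, a late enzyme, went the other way, with 18.7, 17.1 and 20 CPM in EphB2 and 28.6, 24.7 and 25.1 CPM in Ctrl (blocked log2 fold change -0.49, adjusted p = 0.00672, 0.0621 without replicate 3).

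The 15 lower genes with the smallest blocked p had varied roles. LTBP3, which stores latent TGF-beta in the matrix, had 134, 102 and 127 CPM in EphB2 and 216, 158 and 184 CPM in Ctrl (blocked log2 fold change -0.62, adjusted p = 6.97e-06, 0.00266 without replicate 3). OLFML2A, a secreted olfactomedin-like protein, had 84.9, 55.2 and 71.9 CPM in EphB2 and 142, 96.9 and 114 CPM in Ctrl (blocked log2 fold change -0.74, adjusted p = 6.97e-06, 0.00266 without replicate 3). TXNIP, a thioredoxin inhibitor that limits glucose uptake, had 168, 132 and 140 CPM in EphB2 and 271, 214 and 221 CPM in Ctrl, with log2 ratios of -0.69, -0.70 and -0.66 in the 3 pairs (log2 fold change -0.69, SE 0.12, adjusted p = 0.115, 7.63e-06 with the block and 0.00276 without replicate 3 as well). ITGB4, an integrin of hemidesmosomes, had 76.5, 65.9 and 75.7 CPM in EphB2 and 124, 95.8 and 104 CPM in Ctrl (blocked log2 fold change -0.56, adjusted p = 3.67e-05, 0.00372 without replicate 3). None of these 4 genes overlapped between the groups. DHRS3, a retinal reductase, had 30.8, 9.04 and 21.7 CPM in EphB2 and 71.5, 18.2 and 35.4 CPM in Ctrl, and its groups overlapped (blocked log2 fold change -0.99, adjusted p = 9.9e-05, 0.00216 without replicate 3). CPA4, a secreted carboxypeptidase, had 47.4, 56.2 and 48.6 CPM in EphB2 and 67.0, 81.4 and 74.5 CPM in Ctrl (blocked log2 fold change -0.55, adjusted p = 7.49e-05, 0.0162 without replicate 3).

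The others of the 15 lower genes with the smallest blocked p, apart from KRT80, TNS2 and KIF20A, were MEST, OBSL1, MXRA8, PEG10, CBX5 and SYNPO. Their blocked log2 fold changes were -0.58, -0.54, -0.42, -0.39, -0.44 and -0.45, and each passed without replicate 3 (adjusted p = 0.00957, 0.00957, 0.0131, 0.0134, 0.0287 and 0.0114). MEST and PEG10 are imprinted genes. CBX5, heterochromatin protein 1 alpha, was the most abundant of them, with 539, 713 and 604 CPM in EphB2 and 755, 934 and 823 CPM in Ctrl. Of 22 TGF-beta targets 2 rose and 7 fell with the block, against 2.13% and 3.2% of all genes. Their median was -0.16, and 1 rose and 1 fell without replicate 3. Of 35 collagen and matrix genes 3 rose and 7 fell, with a median of -0.05, and 1 rose and 2 fell without replicate 3. COL1A1, the main chain of type I collagen, had 2665, 2747 and 2974 CPM in EphB2 and 3585, 3462 and 3598 CPM in Ctrl (blocked log2 fold change -0.34, adjusted p = 0.000675, 0.0544 without replicate 3). COL6A1, a microfibrillar collagen, rose, with 748, 620 and 715 CPM in EphB2 and 552, 363 and 430 CPM in Ctrl (blocked log2 fold change 0.65, adjusted p = 0.000108, 0.0287 without replicate 3). Ribosomal protein genes were slightly lower, with 34 of 36 log2 fold changes negative and a median of -0.14. With the block 7 fell, where 3.2% of all genes fell, and none of them passed without replicate 3. The groups overlapped in all 36, where 5.93% of all genes did not overlap with EphB2 lower. The median log2 ratio was -0.30, -0.07 and -0.10 in the pairs of replicates 1, 2 and 3, so it was largest in replicate 1. Replicate 1 minus replicate 2 had a median of -0.72 in EphB2 and -0.47 in Ctrl for these genes on the log2 scale.

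**Figure D4:**
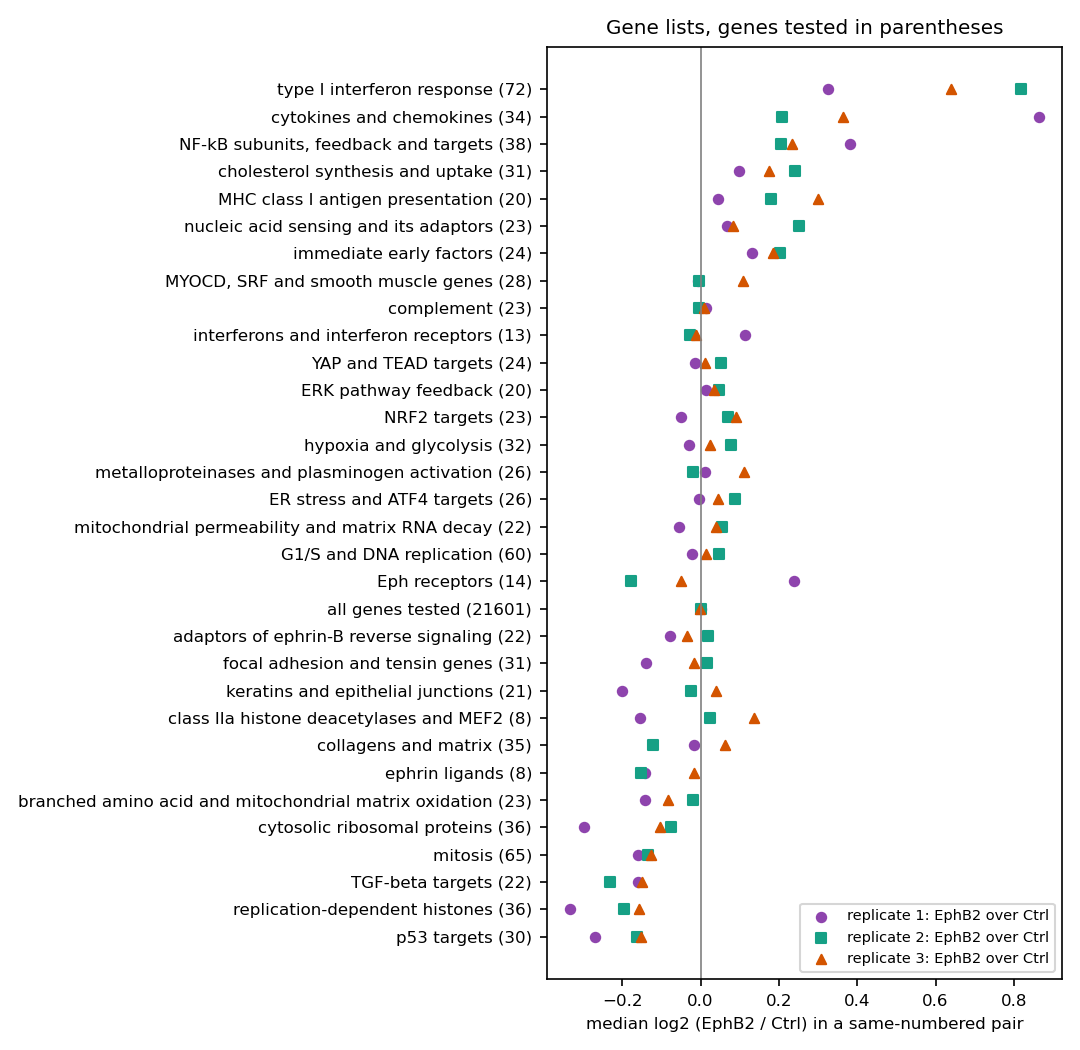
Median over the genes of each list of the log2 ratio of EphB2 over Ctrl (x axis), within the same-numbered pairs of replicate 1 (circles), 2 (squares) and 3 (triangles). Lists run down the page by their median log2 fold change, with the number of genes tested in parentheses; the interferon list gives 0.33, 0.82 and 0.64 and the mitosis list -0.16, -0.13 and -0.13.

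The largest fold changes among genes past the blocked threshold included rare transcripts. FAM220A had 0.686, 12.5 and 10.6 CPM in EphB2 and 0.0749, 0.0516 and 0.366 CPM in Ctrl, and PANK4, a pantothenate kinase family member, had 33.6, 23.4 and 14.4 CPM in EphB2 and 2.70, 7.18 and 2.77 CPM in Ctrl (blocked adjusted p = 0.0437 and 0.00442, 0.0199 and 0.0394 without replicate 3). FAM220A was at or near the floor of 3 counts in Ctrl, so no fold is given for it, and the log2 fold change of PANK4 was 2.62. For FAM220A, in cells with ephrin-B1 siRNA, the values were 0.393, 0.410 and 15.2 CPM with EphB2-Fc and 0.631, 12.6 and 0.529 CPM with Ctrl-Fc, high in 1 library of each. PANK4 had 9.67, 27.4 and 21.3 CPM with EphB2-Fc and 6.36, 26.9 and 18.6 CPM with Ctrl-Fc in those cells. Its coding transcript with the highest level had 15.6, 7.65 and 5.29 TPM in EphB2 and 0, 1.92 and 0 TPM in Ctrl, in the authors' values. At the low end, AMIGO3 had 0, 0 and 0.977 CPM in EphB2 and 2.55, 1.75 and 1.78 CPM in Ctrl, and GMPPB overlaps it on the same strand (blocked adjusted p = 0.0309, 0.00325 without replicate 3). PCDHA3, SCNN1A, CRB2 and PLEKHS1 completed the lowest 5, with means of 4.86 CPM or less in either group. PCDHA3 overlaps 15 other protocadherin alpha genes on the same strand, so its estimated counts are uncertain. The 4 genes had blocked log2 fold changes of -1.47, -1.33, -1.28 and -1.29 (adjusted p = 0.0176, 0.00147, 0.00143 and 0.00496). Without replicate 3, CRB2 passed (adjusted p = 0.0314) and PCDHA3, SCNN1A and PLEKHS1 did not (adjusted p = 0.198, 0.0718 and 0.145).

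No gene of the ephrin system itself passed the threshold. Of 8 ephrin ligands, 14 Eph receptors and 22 adaptors of reverse signaling tested, 0 were called without the block, with it, or with it and without replicate 3. Of all genes, 0.037% were called without the block, and 2.13% rose and 3.2% fell with it. Without replicate 3 as well, 0.329% rose and 0.349% fell. Lists of these sizes would hold few calls at such shares, so 0 calls do not set these genes apart. Some Eph receptors, such as EPHA3 and EPHA7, were below 1 CPM in all 6 libraries. EFNB1, which encodes ephrin-B1, had 15.6, 18.8 and 18.4 CPM in EphB2 and 20.4, 17.4 and 19.3 CPM in Ctrl (log2 fold change -0.12, SE 0.13, adjusted p = 0.921). EFNB2 had 64.8, 45.1 and 31.4 CPM in EphB2 and 51.1, 41.4 and 40.8 CPM in Ctrl (log2 fold change 0.08, SE 0.24, adjusted p = 0.983). EFNB3 had 19.3, 20.1 and 22.1 CPM in EphB2 and 22.2, 25.4 and 24.5 CPM in Ctrl, with EphB2 lower in every library (log2 fold change -0.23, SE 0.09, adjusted p = 0.611, 0.0868 with the block). EPHB2, the receptor gene, had 58.2, 68.5 and 63.4 CPM in EphB2 and 59.5, 73.4 and 65.8 CPM in Ctrl (log2 fold change -0.07, SE 0.09, adjusted p = 0.949).

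Lists of stress and growth are read against the same shares of all genes, 2.13% higher and 3.2% lower with the block. With the block, 2 genes rose and 1 fell of 26 ER stress and ATF4 targets, 2 rose and 1 fell of 32 hypoxia and glycolysis genes, and none of 23 NRF2 targets was called. Without replicate 3 none of these 3 lists had a call. Among 24 YAP and TEAD targets 5 rose and 3 fell with the block, and 2 rose and none fell without replicate 3. ANKRD1, a mechanosensitive nuclear protein, had 95.7, 114 and 116 CPM in EphB2 and 76.6, 89.2 and 82.2 CPM in Ctrl, and AJUBA, a LIM protein of junctions, had 124, 165 and 143 CPM in EphB2 and 172, 199 and 199 CPM in Ctrl (blocked log2 fold changes 0.39 and -0.40, adjusted p = 0.000579 and 0.00815, 0.0633 and 0.157 without replicate 3). Among 24 immediate early factors 5 rose and 1 fell, with a median log2 fold change of 0.17, and 2 rose and none fell without replicate 3. Of 31 focal adhesion genes 2 rose and 4 fell, and none rose and 1 fell without replicate 3. Among the 4 was CAV1, the main protein of caveolae, with 637, 626 and 604 CPM in EphB2 and 748, 745 and 721 CPM in Ctrl (blocked log2 fold change -0.25, adjusted p = 0.00278, 0.127 without replicate 3).

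The same treatment in cells with ephrin-B1 siRNA shares no library with this comparison. There, EphB2-Fc against Ctrl-Fc gave 25 genes past the threshold without the block (0.116%), and 609 higher (2.82%) and 887 lower (4.11%) with it, or 107 higher and 62 lower without replicate 3. In fits that used only the 6 libraries of each comparison and the block, 290 genes were higher and 463 lower with control siRNA among 19284 genes tested in both. Of the 290 higher genes, 209 were also called higher with ephrin-B1 siRNA, which is 72.1% of the 290 and 27.2% of the 769 called there, and 284 had the same sign. Of the 463 lower genes, 265 were also called lower, which is 57.2% of the 463 and 25.8% of the 1028 called there, 435 had the same sign, and 1 was called in the opposite direction. Same-numbered libraries of both comparisons share an experiment number, so the comparisons are separate in libraries but not in experiments. These overlaps include replicate 3 and were not counted without it.

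The leading genes were also higher in these libraries. With the block, the log2 fold change in cells with ephrin-B1 siRNA was 2.48 ± 0.11 for IL32 (adjusted p = 1.01e-07), 2.38 ± 0.14 for C3 (adjusted p = 1.31e-06), 1.40 ± 0.13 for MYOCD (adjusted p = 4.62e-05) and 0.79 ± 0.06 for HDAC9 (adjusted p = 2.24e-05), each with its SE. Of the interferon list 53 of 72 genes rose there and none fell, where 2.82% of all genes rose and 4.11% fell. Of the mitosis list 37 of 65 fell and none rose. For the genes and lists of this paragraph, values with ephrin-B1 siRNA and without replicate 3 are not given. The cholesterol list had 11 genes that rose with control siRNA, while with ephrin-B1 siRNA none rose and 1 fell. The test of the difference for HMGCS1 gave an unadjusted p of 0.000569 with the block (log2 fold change 0.42 with control siRNA and 0.13 with ephrin-B1 siRNA), which did not pass adjustment over all genes. Among the 8 genes called without the block and the 30 with the smallest blocked p, CPA4, TNS2 and KRT80 had the smallest unadjusted p of the difference without the block (0.0175, 0.0365 and 0.0817), and none passed adjustment. Their blocked log2 fold changes were -0.55, -0.57 and -0.62 with control siRNA and -0.20, -0.35 and -0.41 with ephrin-B1 siRNA. Over all genes the test of the difference called none without the block, with 498 at an unadjusted p of 0.05, and 2 in DESeq2. With the block it called 1 (0.00463%), which was UPK1A, a uroplakin, named after its values were seen. UPK1A had 3.20, 1.33 and 1.71 CPM in EphB2 and 1.35, 1.39 and 1.20 CPM in Ctrl, and 0 CPM in all 3 libraries with EphB2-Fc against 3.84, 1.40 and 2.31 CPM with Ctrl-Fc in cells with ephrin-B1 siRNA.

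**Figure D5:**
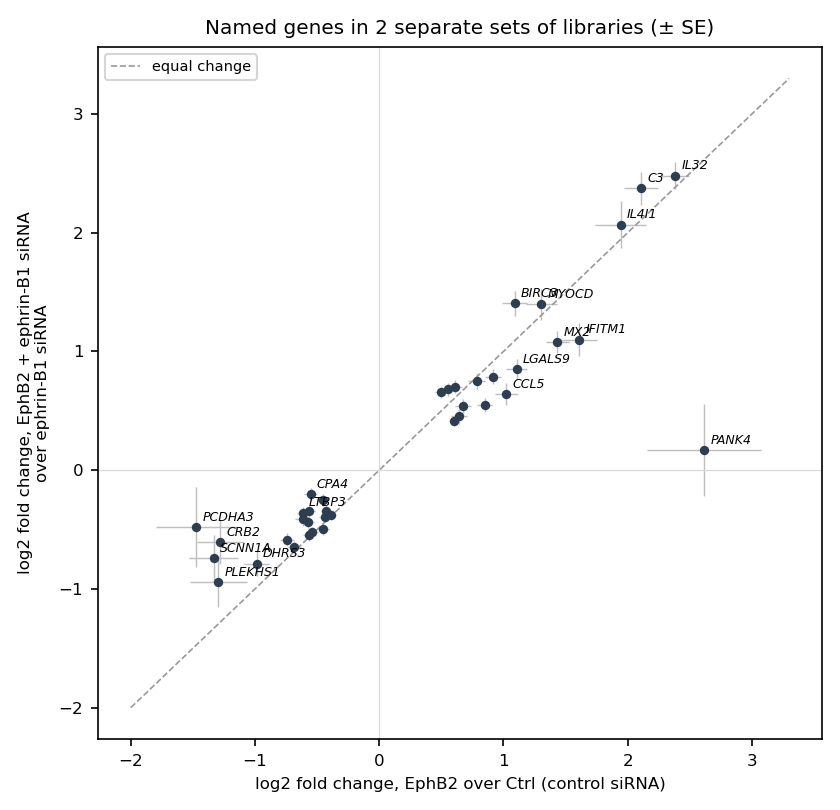
Log2 fold change with the block of named genes in EphB2 over Ctrl (x axis) and in EphB2 + ephrin-B1 siRNA over ephrin-B1 siRNA (y axis), with SE bars and a dashed line of equal change; FAM220A and AMIGO3 are left out because of their wide errors. IL32 lies at 2.38 and 2.48 and PANK4 at 2.62 and 0.17; the genes were chosen by their values on the x axis.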

How the data were processed

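RNA depleted of ribosomal RNA was sequenced as paired ends from 12 libraries of HMC3 cells, 3 in each of 4 groups. The authors quantified each library with kallisto (version not given in the sources used here) against Ensembl cDNA of GRCh38, and deposited the estimated counts, TPM and effective length of 188753 transcripts per library. Estimated counts divide reads among similar transcripts, so close gene copies share uncertainty. Transcripts were paired with genes through GENCODE 44 (167067 transcripts, 88.5%), which kept 95.25 to 95.98% of the counts and gave 36315 genes. For each gene, the deposited estimated counts of its transcripts were added up and rounded to whole numbers. The deposited TPM values were used for single transcripts and for limma alternatives with a pseudocount of 1 or 0.1, and the deposited effective lengths for an offset.

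The 21601 genes whose counts reached 10 in total were fitted with edgeR 4.0.16 in R 4.3.3 by the quasi-likelihood test with TMM scaling, a term for each group and no block. P-values were adjusted by Benjamini-Hochberg over all genes tested at a threshold of 0.05, and the SE is the log2 fold change divided by the square root of F. Same-numbered libraries share an experiment number in the submitted file names. The numbers were taken as pairs on that ground, and a fit with the replicate block is given beside the fit without it. Deviations of same-numbered libraries from their group means correlated between EphB2 and Ctrl at 0.30, 0.34 and 0.01 for replicates 1, 2 and 3. Such deviations sum to 0 within a group, so the values of replicates 1 and 2 are not separate. Replicate 3 lay near the middle, so its value cannot show whether its libraries pair. The fitted spread between libraries (common coefficient of variation) came to 0.0649 with the block and 0.182 otherwise. Other alternatives used DESeq2 1.42.0, limma 3.58.1, other filters and each library or replicate left out. The fits were tested on simulated data with a separate shift for each replicate number. A replicate lying between the others, as replicate 3 did here, was not simulated, so that test does not cover this feature.

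Named genes were those past the threshold without the block; the 15 higher and 15 lower with the smallest blocked p, moved the same way in 3 pairs and with a mean of at least 1 CPM; the 5 highest and 5 lowest log2 fold changes among them; up to 4 genes per list with the smallest unadjusted p; genes the study names; ephrin-B genes and EPHB2; the 3 with the smallest p of the difference between siRNAs; and 2 genes per marker list. The members and the 31 gene lists were chosen with earlier results of these data known. Promoters came from RefSeq (GRCh38.p14), matched by symbol for 13482 of the genes tested. Some results that the naming rule selects are not reported here.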

Additional observations from a re-analysis of the deposited data

Results flagged for a closer look

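UPK1A differed between the siRNA backgrounds in its response to EphB2-Fc, by the edgeR test of that difference with the replicate block (adjusted p = 0.00358). Without the block the adjusted p was 0.212. It had 3.20, 1.33 and 1.71 CPM in EphB2 and 1.35, 1.39 and 1.20 CPM in Ctrl. With ephrin-B1 siRNA it was at 0 in all 3 libraries with EphB2-Fc, against 3.84, 1.40 and 2.31 CPM with Ctrl-Fc.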

How the results depend on the processing

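Of the named genes whose alternatives were run, none changed sign, whereas the counts of calls moved widely. With the replicate block, EphB2 against Ctrl gave 1153 calls instead of 8, the same treatment with ephrin-B1 siRNA 1496 instead of 25, the difference between siRNAs 1 instead of 0, and the lists 230 instead of 8. DESeq2 gave 203, 270, 2 and 62, and with the block 1099, 1275, 28 and 251. Fits of only the groups compared gave 1, 2 and, in the lists, 1, and with the block 755, 1803 and 190. No filter on low counts gave 13 for EphB2 against Ctrl and 1 for the difference, and 1 CPM in 3 libraries gave 44 with ephrin-B1 siRNA. An offset for transcript length gave 0, 7 and, in the lists, 0, limma on TPM with a pseudocount of 1 gave 0, 0 and 0, and with 0.1 gave 1, 2, 1 and 0. 

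Leaving out a single library without the block gave 0 to 15 calls for EphB2 against Ctrl, 0 to 27 with ephrin-B1 siRNA, 0 for the difference and 0 to 11 in the lists. Leaving out replicate 1, 2 or 3 of every group gave 2, 0 and 0 calls, against 3, 1 and 0 with ephrin-B1 siRNA. With the block and without replicate 1, 2 or 3 of every group, the calls were 665, 739 and 140, with ephrin-B1 siRNA 891, 765 and 169, for the difference 0, 12 and 6, and in the lists 183, 175 and 48. With the block and 1 library left out, a choice made after seeing the data, the calls without Ctrl replicates 1, 2 and 3 were 683, 668 and 550, with ephrin-B1 siRNA 1446, 1396 and 1282, and in the lists 182, 166 and 144. Without EphB2 replicates 1, 2 and 3 they were 787, 905 and 627, with ephrin-B1 siRNA 1757, 1584 and 1338, and in the lists 191, 198 and 167, and the difference had 3 without EphB2 replicate 3. The cause was not tested. All 8 genes called without the block, and IL32, were called in all 12 alternatives with the block. At this depth genes near the floor of 3 counts, such as IFNB1 and CXCL10, could not be compared.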

Other observations

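Genes outside the lists, chosen after their values were seen, included the MHC class II invariant chain CD74 and CTSS, the protease that trims it. CD74 had 23.9, 7.08 and 14.9 CPM in EphB2 and 9.29, 2.89 and 7.68 CPM in Ctrl (blocked log2 fold change 1.19, adjusted p = 0.000188 in edgeR, 0.00937 without replicate 3), with overlapping groups. CTSS had 9.31, 3.73 and 5.91 CPM in EphB2 and 3.44, 1.75 and 2.56 CPM in Ctrl, without overlap (blocked log2 fold change 1.25, adjusted p = 0.000254, 0.0248 without replicate 3). Neither passed without the block (adjusted p = 0.636 and 0.532).

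The immune checkpoint ligands CD274 and PDCD1LG2 were higher too, and their groups did not overlap. CD274 had 25.8, 37.0 and 28.0 CPM in EphB2 and 17.8, 23.6 and 21.2 CPM in Ctrl (blocked log2 fold change 0.53, adjusted p = 0.000534, 0.0259 without replicate 3). PDCD1LG2 had 20.7, 29.3 and 22.2 CPM in EphB2 and 11.8, 17.8 and 16.2 CPM in Ctrl (blocked log2 fold change 0.65, adjusted p = 0.00161, 0.0265 without replicate 3). With ephrin-B1 siRNA the blocked log2 fold change was 0.07 for CD274 and 0.53 for PDCD1LG2, and the difference between siRNAs had an unadjusted p of 0.000259 and 0.395 with the block, neither past adjustment. Without the block the adjusted p of CD274 was 0.437 and that of PDCD1LG2 0.562.

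STC2, a secreted stress-induced glycoprotein, had 329, 360 and 354 CPM in EphB2 and 250, 300 and 290 CPM in Ctrl. Its blocked log2 fold change was 0.31 with control siRNA (adjusted p = 0.00442, 0.112 without replicate 3) and 0.76 with ephrin-B1 siRNA, and the unadjusted p of that difference was 5.86e-05 with the block and 0.00318 without it. It did not pass adjustment over all genes.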
